A study of Mus musculus with 12 samples.

Results

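The constructs described here carried sgRNAs against both Pdcd1 and Adora2a and none against Ctla4, in a pooled CRISPR library of 689 lentiviral constructs. They were chosen by their target lists alone, whatever their reads: 42 of the 689 constructs named Pdcd1 and Adora2a, left out Ctla4, and held 0 to 2 further sgRNAs against Tigit, Btla or Havcr2. They made up 7 of the 101 gene combinations of the library, with 6 constructs for each combination. Each construct held 4 sgRNAs in tandem, and a combination of fewer than 4 genes was filled up with non-targeting sgRNAs.

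Tumour-infiltrating lymphocytes (TIL) were library-transduced CD8+ T cells with a C57BL/6 label, transferred into mice 12 days after tumour inoculation and sorted from the tumour as CD8+mKate2+ cells 7 days later. They were set against the starting reference (SR), a frozen portion of the same transduced T cells that never entered an animal. All samples in both conditions carried the library, and 84 constructs with 4 non-targeting sgRNAs each served as the negative control. A TIL replicate pooled the cells of 3 to 4 recipients, with 20000 to 40000 sorted cells from a tumour, and human Raji carrier cells were added at 50 per T cell before DNA extraction. There were 3 replicates of each condition, and each was read over 2 regions of the cassette, so 12 samples in 4 groups were available. Region 1 spans sgRNA 1 and sgRNA 2, region 2 spans sgRNA 2 and sgRNA 3, and sgRNA 4 was not read. The SR libraries were amplified by direct PCR and the TIL libraries by PCR in 2 steps, so the amplification differed with the condition and its part in the results cannot be told apart from that of the tumour. Whether the replicates came from separate transductions is not given in the labels, so the p-values below measure the spread between these samples.

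Pdcd1 encodes PD-1, an inhibitory receptor on activated T cells that recruits phosphatases to the T cell receptor and CD28 when it binds PD-L1 or PD-L2. Adora2a encodes the main adenosine receptor of T cells, a G protein-coupled receptor that raises cyclic AMP in T cells when adenosine accumulates, as it does in hypoxic tumours. The other receptors in these constructs are also inhibitory: TIGIT (Tigit) binds CD155 on tumour and antigen-presenting cells, BTLA (Btla) binds HVEM, and TIM-3 (Havcr2) marks exhausted T cells. Ctla4, which competes with CD28 for its ligands, was the gene that these constructs lacked.

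A construct is named by its genes (P for Pdcd1, A for Adora2a, T for Tigit, B for Btla, H for Havcr2) and a letter from a to f. Spacers are given 5′ to 3′ as designed, for constructs that were found in at least 2 TIL replicates or passed a test upward, because the results below turn on them. Capitals mark the Pdcd1 and Adora2a spacers, lower case marks spacers of the other genes, and the non-targeting spacers are left out.
PA-d, sgRNA 1, Adora2a: CATCGGCCTGACCCCCATGC
PA-d, sgRNA 2, Pdcd1: TCTGGGCATGTGGGTCCGGC
PAB-d, sgRNA 1, Btla: tgggactcctcggttattta
PAB-d, sgRNA 2, Adora2a: CAAAGACCTGCGGCGAGGGC
PAB-d, sgRNA 3, Pdcd1: TGAATGACCAGGGTACCTGC
PATB-b, sgRNA 1, Adora2a: GGAGAGCCAACCCCTACCAG
PATB-b, sgRNA 2, Pdcd1: TGTTGGGCAGCTGTATGATC
PATB-b, sgRNA 3, Tigit: cctatcatacgtatcctggt
PATB-b, sgRNA 4, Btla: ttcatagacctaatgtgact
PABH-a, sgRNA 1, Adora2a: AGCACACAAGCACGTTACCC
PABH-a, sgRNA 2, Pdcd1: GCTCAAACCATTACAGAAGG
PABH-a, sgRNA 3, Btla: gattccttccaataacacaa
PABH-a, sgRNA 4, Havcr2: ctaaagggcgatctcaacaa

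The 42 constructs drew on 9 Pdcd1 spacers, each used in 3 to 6 of them, and on 9 Adora2a spacers, each used in 3 to 7. All spacers were 20 bases long, and every construct had its own pairing of a Pdcd1 with an Adora2a spacer. Some spacers of a gene overlap, so constructs that carry them are aimed at nearly the same place. For Pdcd1 and for Adora2a, the pair with the longest shared stretch is shown, with that stretch in capitals. Shorter overlaps are not shown.
Pdcd1, first of the pair: aGATCATACAGCTGCCCAAC
Pdcd1, on the opposite strand: tGTTGGGCAGCTGTATGATC
Adora2a, first of the pair: ctccaCAAAGACCTGCGGCG
Adora2a, on the same strand: CAAAGACCTGCGGCGagggc
The Pdcd1 pair share 19 bases across the strands, and the Adora2a pair share 15 bases on 1 strand.

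The deposited values are scaled reads: the authors scaled the reads of each construct library by library and rounded them. Totals ran from 8288404 to 23012713 scaled reads in TIL libraries and from 9963617 to 25646820 in SR libraries. They were turned into CPM, reads scaled to the same total in every library, and the regions were averaged within a replicate. In the SR libraries every one of the 42 constructs had reads in both regions of all replicates, with mean levels of 116 to 6343 CPM and a median of 1302 CPM, against a median of 806 CPM for non-targeting constructs and 1136 CPM for the whole library. In the TIL libraries the median level of the 42 constructs was 0.627, 0.307 and 0.0660 CPM in replicates 1, 2 and 3. So most of these constructs were nearly lost from the sorted cells, and a few held nearly all of their reads. Detection in a TIL replicate means more than 1000 scaled reads in region 1 and also in region 2. Correlations between replicates over these 42 constructs, whose shared starting levels also enter them, were 0.16 to 0.35 among TIL replicates and 0.96 to 0.99 among SR replicates on the log2(CPM + 1) scale, across constructs that are not independent.

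Together the 42 constructs, 6.10% of the library by number, took 13.8%, 8.60% and 3.05% of the reads in TIL replicates 1, 2 and 3, against 6.79%, 6.16% and 6.17% in the SR libraries of the same number. Their share was above that of the SR in TIL replicates 1 and 2 and below it in TIL replicate 3. Non-targeting constructs took 5.01 to 5.87%, 3.66 to 4.85% and 7.65 to 10.3% in the libraries of TIL replicates 1, 2 and 3, against 9.94 to 11.4% in SR libraries. The single most abundant of the 42 constructs accounted for 18.5%, 27.6% and 25.5% of the reads that the 42 took in TIL replicates 1, 2 and 3.

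Detection in the tumour was uneven and rarely repeated. Of the 42 constructs, 11 were detected in TIL replicate 1 (26.2%, Wilson 95% interval 15.3 to 41.1%), 5 in replicate 2 (11.9%, 5.19 to 25.0%) and 6 in replicate 3 (14.3%, 6.72 to 27.8%). Over all 689 constructs the shares were 11.3%, 8.85% and 14.1%, and over non-targeting constructs they were 5.95%, 2.38% and 10.7%. The mean share was 17.5 ± 7.65% for the 42 constructs and 6.35 ± 4.18% for non-targeting constructs (SD, n = 3 replicates each), and it was above non-targeting in 3 of 3 replicates. The intervals count constructs as independent, though they share spacers and, within a replicate, 1 pool of sorted cells. They do not cover the spread between replicates. Detection itself rests on reads from PCR, which are not independent molecules. In replicate 3 the share of the 42 constructs lay within 1 percentage point of that of the whole library. Constructs that also carried a Ctla4 sgRNA were detected at 27.8 ± 9.62%, constructs with Pdcd1 but neither Ctla4 nor Adora2a at 13.2 ± 2.41%, and constructs with Adora2a but neither Pdcd1 nor Ctla4 at 13.2 ± 3.18%. The differences between these classes were not tested.

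Of the 42 constructs, 18 were detected at least once (42.9%), while 26.3% of the library and 16.7% of non-targeting constructs were. Of those 18, 15 were found in 1 replicate only, 2 in 2 replicates and 1, PA-d, in all 3. Replicates 1 and 2 shared 2 detected constructs, replicates 1 and 3 shared 2, and replicates 2 and 3 shared 1. Detection went with the starting level. The 18 detected constructs had a median SR level of 1495 CPM, against 1123 CPM for the other 24. In equal bins of the library ordered by SR level, low to high, the 42 constructs were detected in 3 of 24, 0 of 18, 5 of 24, 5 of 33 and 9 of 27 cases (construct and replicate), or 12.5%, 0%, 20.8%, 15.2% and 33.3%. For all constructs the same bins gave 2.42%, 3.62%, 11.4%, 15.5% and 24.2%. The 42 constructs were therefore above the library in the lowest, middle and highest bins, below it in the second, and level with it in the fourth. What part the higher starting level of the 42 constructs over non-targeting ones had in their detection was not tested.

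Each construct was compared between TIL and SR with limma on log2(CPM + 1), with p-values adjusted by the Benjamini-Hochberg method over all 689 constructs. Of the 42, 21 fell in TIL (50.0%), against 67.8% of the library, and 1 rose, against 0.435% of the library, while 20 did not pass. The 21 that fell were the same 21 that stayed at or under 1000 scaled reads in all 6 TIL libraries, where none exceeded 77. Their log2 changes ran from -11.21 to -6.80. The largest falls were those of PATH-c, PATH-b and PAB-b. PATH-c had 0.580, 0.270 and 0.110 CPM in TIL, against 3035, 3079 and 3193 CPM in SR, a log2 change of -11.21 ± 0.16 (SE, n = 3 each, limma adjusted p = 1.5e-07). PATH-b changed by -11.10 ± 0.21 and PAB-b by -10.88 ± 0.17 on the same scale. PATH-b and PATH-c carry the same Adora2a spacer, and all 3 began well above the median of the library, so the size of these falls is bounded by where they started.

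PAB-d was the only construct among the 42 that rose. It targets Btla, Adora2a and Pdcd1 in that order and had 9974, 4765 and 5957 CPM in TIL, against 2144, 2316 and 2081 CPM in SR. All 3 TIL values were above all 3 SR values, and the log2 change was 1.59 ± 0.31 (SE, n = 3 each, limma adjusted p = 0.00600). The regions disagreed, however. Region 1 gave 427956, 219038 and 143758 scaled reads in TIL replicates 1, 2 and 3, and region 2 gave 763, 185 and 46316. PAB-d was thus detected in both regions in replicate 3 only, and with region 2 alone its log2 change was -3.80, while the authors' deposited log2 ratios, which average the regions after taking logs, were -1.28, -2.83 and 1.35. With the lower of the regions in each library pair, an alternative chosen after seeing the data, the change was -3.72 (limma adjusted p = 0.22).

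PA-d, which carries Adora2a and Pdcd1 spacers and 2 non-targeting ones, was the only one of the 42 detected in every TIL replicate. It had 7912, 23725 and 3632 CPM in TIL, against 5365, 6907 and 6757 CPM in SR. Its TIL value was above the SR in replicates 1 and 2 and below it in replicate 3, so the ranges overlap, and the log2 change of 0.48 ± 0.74 did not pass (limma adjusted p = 0.57). It was also the most abundant of the 42 at the start, where it stood at percentile 98.7 of the library. The other 5 Adora2a+Pdcd1 constructs were not detected in any replicate. PA-b exceeded 1000 scaled reads in region 2 of TIL replicate 3 alone.

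PATB-b, which targets all of Adora2a, Pdcd1, Tigit and Btla, had 7760, 0.394 and 2366 CPM in TIL, against 4548, 3163 and 2813 CPM in SR. It was detected in replicates 1 and 3 and nearly absent in replicate 2, and the log2 change was -3.54 ± 3.59 (limma adjusted p = 0.40).

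The regions also disagreed in other constructs. In 8 of 126 cases (6.35%) 1 region passed 1000 scaled reads and the other did not, against 3.19% of cases over the library and 0.794% over non-targeting constructs, and these 8 cases came from 6 constructs. PATB-f had 15 and 11 scaled reads in region 1 of TIL replicates 1 and 2, and 203775 and 137737 in region 2. PATH-a had 161242 scaled reads in region 1 of TIL replicate 2 and 58 in region 2. PATB-e had 103 and 28061 in regions 1 and 2 of TIL replicate 3. Since both regions read the same cassettes, a construct seen in 1 region only does not have a settled level, and what made the regions differ was not tested.

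Because most of the library fell, each construct was also set against the mean of the 84 non-targeting constructs in its own sample, in a second limma fit over all 689 constructs. Relative to that control 4 of the 42 rose (9.52%), against 4.64% of the library, and 7 fell (16.7%), against 21.0% of the library. Those that rose included PAB-d, at 9.99 ± 0.47 (SE, limma adjusted p = 0.00105), PA-d, at 8.88 ± 1.04 (adjusted p = 0.016), and PABH-a, at 1.60 ± 0.42 (adjusted p = 0.048), all in log2 units with n = 3 each. PABH-a was not enriched in any absolute sense. It had 0, 0 and 0.0440 CPM in TIL, against 155, 104 and 87.8 CPM in SR, a log2 change of -6.80, and its place above non-targeting comes with a starting level near the bottom of the library. None of the 4 calls held with replicate 1 left out, and only that of PAB-d held with replicate 2 left out.

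Rises of 2-fold or more in both regions did not repeat between replicates. With the regions averaged, PAB-d was above its SR level in all 3 replicates, and PA-d, PATB-f and PATH-a were among those above it in replicates 1 and 2. By the authors' rule, which asks for a deposited log2 ratio of 1 or more in each region, 8 of the 42 constructs were up in replicate 1 (19.0%), 5 in replicate 2 (11.9%) and 2 in replicate 3 (4.76%), against 8.71%, 7.55% and 6.1% of the library. The 15 were all different constructs. None of the 42 was up in more than 1 replicate, while 26 of the 126 library constructs that were up at all were up in at least 2. The following examples were chosen after their values were seen. PATH-d had 0.0697, 12995 and 0 CPM in TIL, against 309, 218 and 227 CPM in SR. PAT-a had 6364, 1.10 and 0.0440 CPM in TIL, against 200, 71.7 and 96.4 CPM in SR. PABH-b had 8541, 0 and 0 CPM in TIL, against 371, 222 and 368 CPM in SR. Each of these was scarce at the start, above its SR level in 1 TIL replicate, and at or near 0 in the others, and none passed the limma test across replicates.

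For each combination the log2(CPM + 1) of its 6 constructs was averaged, the average of that sample's non-targeting constructs was subtracted, and TIL was compared with SR by limma over all 101 combinations. All 7 combinations lay above non-targeting and none passed the test, against 0.99% of the library's combinations called higher. In the library 72 of 101 combinations lay above 0, and the median was 1.53 for the 7 and 0.52 for all. An unadjusted p under 0.05 was reached by 2 of the 7 and by 19 of the 101. With values centred on the median of all constructs in place of non-targeting ones, 4 of the 7 passed, and so did 48 of the 101. That sets a mean over constructs against a median, so these passes do not show a rise above the library. Over all 42 constructs the mean relative to non-targeting was 2.83, 1.83 and 0.34 in replicates 1, 2 and 3, or 1.67 ± 1.25 (SD, n = 3). That mean is carried by the few detected constructs: the median construct of the 42 stood only 0.30 ± 0.11 above the median non-targeting construct. When the median over constructs took the place of their mean within each combination, the value over the 7 was -0.54 and 5 of the 7 lay below 0. The non-targeting mean was still subtracted there. Non-targeting constructs had a median log2 change of -9.00 and a mean of -8.40, so a value below 0 does not place a combination below the median non-targeting construct. Constructs with Pdcd1, Ctla4 and Adora2a averaged 2.95 ± 1.79 on the mean scale, those with Pdcd1 but neither of the other genes 0.93 ± 0.52, and those with Adora2a but neither of the other genes 0.84 ± 0.77. The differences between the classes were not tested.

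The pair by itself, Adora2a+Pdcd1, had the steadiest value of the 7. It stood at 0.73, 1.26 and 1.14 in replicates 1, 2 and 3, all above 0, with an estimate of 1.04 ± 0.47 (SE, n = 3 each, limma adjusted p = 0.29). The constructs behind these values were not steady. PA-d stood at 9.21, 10.64 and 6.79, and in replicate 3 PA-b stood at 7.02 from region 2 alone. The 3 detections of the pair among 18 cases were all those of PA-d. With the median over its constructs, less the mean of the non-targeting ones, the pair stood at -2.05 (limma adjusted p = 0.024). This sets a median against a mean, so it does not show a fall below the control. Relative to the non-targeting mean, single constructs of the pair stood on both sides of 0, with PA-c at 1.36, PA-b at 0.75, PA-f at -0.28, PA-a at -2.12 and PA-e at -2.32. PA-b stood at -2.21, -2.57 and 7.02 in replicates 1, 2 and 3 (SE 2.81), the last from region 2 alone. PA-c, PA-f, PA-a and PA-e were near 0 CPM in every TIL replicate. Their order is the reverse of that of their mean SR levels, which were 148, 727, 1697 and 2006 CPM. Log2 changes of the 6 constructs of the pair ran from -10.71 to 0.48, with a median of -8.17.

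Adding 1 further receptor gave 3 combinations. Adora2a+Btla+Pdcd1, with the HVEM receptor BTLA, stood at 0.81, 2.83 and 3.14, above 0 in 3 of 3 replicates. With all replicates it stood at 2.26 ± 0.69 (SE, limma adjusted p = 0.15), with 4 detections among 18 cases from 4 constructs. None of its 6 constructs was detected in replicate 1. There only PAB-d stood above 0, at 10.87, from 427956 scaled reads in region 1 and 763 in region 2. With region 2 alone the combination stood at 1.39 (limma adjusted p = 0.47). The steps and interactions below that include this combination also include PAB-d. Adora2a+Havcr2+Pdcd1, with TIM-3, stood at 0.72, 3.79 and 0.06, and at 1.53 ± 0.93 overall (limma adjusted p = 0.47), with most of its value in replicate 2, and at 0.39 without that replicate. Adora2a+Pdcd1+Tigit stood at 3.73, 0.37 and -1.30, and at 0.93 ± 1.22 overall (limma adjusted p = 0.76), and it was the lowest of the 7 with all replicates. Its 2 detections, PAT-a and PAT-e, were both in replicate 1, and without that replicate its value was -0.47.

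Adding 2 further receptors gave the other 3 combinations. Adora2a+Btla+Pdcd1+Tigit was the highest of the 7 and rank 7 of 101, at 4.99, 1.74 and 1.17, and at 2.63 ± 0.95 overall (SE, limma adjusted p = 0.16). It was above 0 in 3 of 3 replicates and also the only one of the 4-gene combinations that was. Its place as the highest did not hold without replicate 1, where it stood at 1.46 and Adora2a+Btla+Pdcd1 at 2.99, or without replicate 2, where it stood at 3.08 and Adora2a+Btla+Havcr2+Pdcd1 at 3.24. With the lower of the regions its value was 0.64, since PATB-e and PATB-f passed 1000 scaled reads in 1 region only. Adora2a+Btla+Havcr2+Pdcd1 stood at 5.73, -0.23 and 0.75, and at 2.09 ± 1.43 overall (limma adjusted p = 0.50), with 3 of its 6 constructs detected in replicate 1 and none in replicate 2. Without replicate 1 its value was 0.26. Adora2a+Havcr2+Pdcd1+Tigit stood at 3.12, 3.07 and -2.56, and at 1.21 ± 1.42 overall (limma adjusted p = 0.74). Leaving out replicate 3 took it to 3.10 with a limma adjusted p of 0.016, leaving out replicate 1 took it to 0.25, and leaving out replicate 2 took it to 0.28.

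By number of targeted genes the values averaged 1.04 ± 0.28 for the pair, 1.57 ± 0.86 for the 3 combinations of 3 genes and 1.98 ± 2.44 for the 3 of 4 genes (SD over 3 replicates). The 4-gene mean was above the pair in replicates 1 and 2, at 4.62 and 1.53, and below it in replicate 3, at -0.21. The 3 combinations with Btla averaged 2.33, against 1.18 for the 4 without, and the difference of 1.15 ± 1.61 (SD, n = 3) was above 0 in replicates 1 and 3 and below 0 in replicate 2. The 3 with Tigit averaged 1.59, against 1.73 for the 4 without, and the 3 with Havcr2 averaged 1.61, against 1.72 for the 4 without. None of these differences exceeded its spread between replicates.

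In the authors' deposited table of constructs that were up in both regions, Adora2a+Btla+Havcr2+Pdcd1 had 3 of 6 constructs up in replicate 1, a log2 enrichment of 2.69 and rank 2 of 101 combinations. That table counts 690 constructs in the library, of which 689 were analysed here. In the same deposited table it had none up in replicate 2 and 1 up in replicate 3, where its log2 enrichment was 2.20. Adora2a+Havcr2+Pdcd1 had 2 constructs up in replicate 2, with a log2 enrichment of 2.48 in the authors' deposited table, and none in replicates 1 and 3. The authors' deposited table gave Adora2a+Pdcd1+Tigit a log2 enrichment of 2.28 in replicate 1, from 2 constructs, and 0 in the other replicates. No combination among the 7 had a construct up in all 3 replicates, and Adora2a+Btla+Havcr2+Pdcd1, Adora2a+Btla+Pdcd1 and Adora2a+Havcr2+Pdcd1+Tigit had one in 2 of the 3.

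The contribution of each gene was read from steps, in which a combination was set against the same combination without 1 gene, with limma over 150 steps among checkpoint combinations. Of the 27 steps that involve these 7 combinations none passed, against 1.33% of all steps. The steps share combinations, so they are not independent of each other. The largest was the addition of Ctla4 to Adora2a+Pdcd1, which gave 6.49, 6.56 and 2.57 in replicates 1, 2 and 3, or 5.20 ± 1.18 (SE, limma adjusted p = 0.13, 95% interval 2.33 to 8.08). All 3 values were above 0. The step passed in 3 of 11 alternatives: with region 1 alone, at 5.82 (limma adjusted p = 0.0084), without replicate 3, at 6.52 (adjusted p = 0.019), and with medians over constructs, at 10.49 (adjusted p = 0.023). In the other 8 alternatives it did not pass, with a limma adjusted p of up to 0.36. Adding Ctla4 to Adora2a+Havcr2+Pdcd1 gave 4.19, 1.95 and 1.53, or 2.56 ± 0.79 (limma adjusted p = 0.18). Adding Ctla4 to Adora2a+Btla+Pdcd1 gave -0.45, -1.89 and -3.82, or -2.05 ± 1.00 (limma adjusted p = 0.32), so the same gene stood on opposite sides of 0 with Btla and without it, a difference that was not tested. The addition to Adora2a+Pdcd1+Tigit gave 0.32 ± 1.03.

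Adding Adora2a to a Pdcd1 combination without Ctla4 gave values above 0 in 5 of 7 steps, with a median of 0.93 and a mean over the steps of 1.68, 0.44 and -0.12 in replicates 1, 2 and 3. For comparison, 79 of all 150 steps were above 0 and their median was 0.17. The highest was the addition of Adora2a to Btla+Pdcd1, at 1.38, 3.07 and 4.84, or 3.10 ± 0.97 (SE, limma adjusted p = 0.18, 95% interval 0.74 to 5.45). The lowest was its addition to Pdcd1+Tigit, at 0.60, -1.34 and -4.77, or -1.84 ± 1.41 (limma adjusted p = 0.56). Its addition to Pdcd1 by itself gave -2.37, -4.08 and 1.72, or -1.58 ± 1.49 (limma adjusted p = 0.66, 95% interval -5.18 to 2.03). The interval covers changes in both directions, so the data neither place the pair above Pdcd1 nor below it.

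Adding Pdcd1 to an Adora2a combination without Ctla4 also gave values above 0 in 5 of 7 steps, with a median of 0.39 and a mean over the steps of 1.18, 0.55 and 0.50 in replicates 1, 2 and 3. Its addition to Adora2a by itself gave -0.15, -0.16 and 1.18, or 0.29 ± 0.67 (SE, limma adjusted p = 0.87). Of the steps named after their values were seen, its addition to Adora2a+Btla+Tigit gave 0.58, 2.40 and 3.98, or 2.32 ± 0.94 (limma adjusted p = 0.30), above 0 in 3 of 3 replicates. Adding Tigit, Btla or Havcr2 to a combination of Pdcd1 and Adora2a gave values above 0 in 6 of 9 steps, with a median of 0.37. Also named after their values were seen, the addition of Btla to Adora2a+Pdcd1+Tigit was the highest of these, at 1.26, 1.36 and 2.48, or 1.70 ± 0.65 (limma adjusted p = 0.30), and the addition of Btla to Adora2a+Pdcd1 was next, at 1.22 ± 0.69 (limma adjusted p = 0.41). Both steps were above 0 in every replicate.

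An interaction asks whether Pdcd1 and Adora2a together departed from the sum of their single steps, on a given set of other genes. Of the 7 interactions without Ctla4 none passed limma over 165 interactions, against 0.606% of all, and 4 of the 7 were above 0, with a median of 0.96, against 76 of 165 and a median of -0.22. On Btla+Tigit the interaction was 1.89, 3.28 and 5.77 in replicates 1, 2 and 3, or 3.65 ± 1.18 (SE, limma adjusted p = 0.13, 95% interval 0.86 to 6.43), above 0 in 3 of 3 replicates. On Btla it was 1.66, 0.74 and 2.54, or 1.64 ± 0.98 (limma adjusted p = 0.39), also above 0 in each replicate. On Havcr2+Tigit it was 2.34 ± 1.75 (limma adjusted p = 0.50), with replicate 3 below 0, and on Havcr2 it was 0.96 ± 1.03. With no other gene it was -3.25, -5.50 and 1.76, or -2.33 ± 1.88 (limma adjusted p = 0.52). It was -2.03 ± 1.95 on Tigit and -0.91 ± 1.81 on Btla+Havcr2. The intervals of the last 3 all span 0 by more than 2 log2 units on either side, so a departure of that size in either direction was not detectable with 3 replicates.

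Among the spacers, 7 of the 9 for Pdcd1 and 8 of the 9 for Adora2a were in at least 1 detected construct. The Adora2a spacer used most, catcggcctgacccccatgc, was in 7 of the 42 constructs and gave 6 detections in 21 cases, from 4 constructs, 3 of the detections being those of PA-d. In the 15 other constructs of the library that carry it, it gave 0 detections in 45 cases. The overlapping Adora2a spacers also differed in count: ctccacaaagacctgcggcg gave 0 of 15 and caaagacctgcggcgagggc gave 2 of 9, and in other constructs of the library they gave 6 of 42 and 15 of 42. Of the 4 Pdcd1 spacers used 6 times each, tctgggcatgtgggtccggc and tgttgggcagctgtatgatc gave 5 detections in 18 cases each, cagcttgtccaactggtcgg gave 3 and agatcatacagctgcccaac gave 2. In other constructs of the library these gave 16 of 36, 9 of 36, 4 of 39 and 7 of 30. The overlapping Pdcd1 spacers thus stood at 5 and 2 of 18 here and at 9 of 36 and 7 of 30 elsewhere. Cases that share a construct or a spacer are not independent, so these counts were not tested.

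Position in the cassette varied with the construct. Pdcd1 was sgRNA 1 in 11 constructs, sgRNA 2 in 19, sgRNA 3 in 8 and sgRNA 4 in 4, with detections in 6 of 33, 9 of 57, 5 of 24 and 2 of 12 cases. Adora2a was sgRNA 1 in 20 constructs, sgRNA 2 in 9, sgRNA 3 in 10 and sgRNA 4 in 3, with detections in 12 of 60, 3 of 27, 5 of 30 and 2 of 9 cases. In the 4 constructs with Pdcd1 last and the 3 with Adora2a last, the spacer of that gene was not itself read in either region and was taken from the library design.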

How the data were processed

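Reads of a 4-sgRNA library were analysed in TIL and SR cells. Bowtie2 is named, without a version or role, per the submitters' processing notes. The scores the authors deposited are reads per construct scaled by an unstated library factor and rounded, so no count test was run. The authors' deposited log2 ratios were recomputed as log2 of TIL over SR with 10 added to both, to within 5e-05. The counts of constructs in the authors' deposited table of up constructs were recounted, and 0 of 303 differed. The region pairs were unique to a construct.

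Totals ran from 8288404 to 25646820 scaled reads. CPM was averaged over 2 regions and log2(CPM + 1) was tested in R 4.3.3 with limma 3.58.1 (n = 3 each, no block). The p-values were adjusted over all constructs, combinations, steps or interactions, at a threshold of 0.05. SR columns carry no replicate number, so an SR library took the number of the TIL library in its table.

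All combinations are named. Constructs are named if they rose in either construct fit, were detected or up in at least 2 replicates, or were among the 3 highest and 3 lowest, and steps and interactions likewise, and 1 construct that met this rule is not reported here. The constructs, lists and thresholds were chosen with earlier results of these data known. Alternatives were another pseudocount, single regions, left-out replicates, a filter at 100 CPM in SR, the authors' ratios, a replicate block, centring on all constructs, medians over constructs, other detection thresholds and, added later, the lower of the regions. The authors' Synergy values were not used, because no source used here defines them. Target coordinates are not given, as no genome was used here.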

Additional observations from a re-analysis of the deposited data

How the results depend on the processing

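The counts of constructs that fell stayed within 1.5 times the main count (467 of all and 21 of the 42) in each alternative run; other counts moved. Constructs higher in TIL numbered 3 of all and 1 of the 42 (5 of all with region 1, 7 to 28 and 1 to 2 when a replicate was left out); none of the 42 was higher with region 2, the authors' ratios or the lower of the regions, 0 of 42 each. Relative to non-targeting, 145 constructs were lower and 32 higher, 7 and 4 of them among the 42. Lower counts were 220 and 12 with region 1, 235 and 12 with the lower of the regions, 78 and 4 with the 100 CPM filter, 0 to 219 and 0 to 13 without a replicate, and 89 overall when centred on all constructs. Higher counts were 56 with pseudocount 10, 16 and 2 with region 2, 12 with the filter, 0 to 66 and 0 to 6 without a replicate, and 228 and 11 when centred. With the authors' ratios all 4 counts were 0, and likewise with the replicate block.

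Combinations above non-targeting numbered 1 of 101 and 0 of the 7. The count was 2 with region 1, 6 with the authors' ratios, 4 with the replicate block, 0 to 10 without a replicate (0 to 1 of the 7), 48 when centred (4 of the 7), and 0 with region 2 or the lower of the regions. The 48 calls when centred set a mean over constructs against a median, so they do not show a rise above the library. With medians over constructs 39 were lower, 1 of them among the 7. The non-targeting mean was still subtracted there, so these calls do not show a fall below the control. Steps past the test numbered 2 and 0; they were 5 and 1 with region 1, 0 to 10 and 0 to 1 without a replicate, 40 and 6 with medians, and 0 with region 2, the authors' ratios, the replicate block or the lower of the regions. Interactions past the test numbered 1; they were 15 with region 1, 4 with the filter, 0 to 20 without a replicate, 23 with medians, and 0 with pseudocount 10, region 2, the authors' ratios or the lower of the regions. The mean over the 42 was 1.67, 3.23 when set against the median of all constructs and -0.54 with medians set against the non-targeting mean.

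For combinations, values under medians are medians less the non-targeting mean. Reversed values under medians were Adora2a+Btla+Pdcd1 at -0.043, Adora2a+Havcr2+Pdcd1 at -1.25, Adora2a+Havcr2+Pdcd1+Tigit at -1.54, Adora2a+Pdcd1 at -2.05, Adora2a+Pdcd1+Tigit at -0.43, and the interactions on Havcr2+Tigit at -0.81 and on Btla+Havcr2 at 2.12. The last was also 0.030 with region 2, 0.065 with the lower of the regions, and -2.72 to 0.34 without a replicate. Without a replicate Adora2a+Pdcd1+Tigit ran from -0.47 to 2.05, PA-d from -0.17 to 1.17 and PATB-b from -5.70 to 0.26. PAB-d reversed to -3.80 with region 2, -3.72 with the lower of the regions and -0.92 with the authors' ratios. The cause of these changes was not tested, except that leaving out a replicate or the filter leaves fewer values to test.

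The replicate numbers were not shown to pair TIL with SR samples: the deviations of same-numbered samples correlated at 0.07, -0.08 and 0.09 over constructs. Detection of the 42 ran from 13.1 to 23.8% over its alternatives and lay above non-targeting in each. With 3 replicates, and levels near 0 in TIL, any statement on constructs that were not detected is limited. What part depth or the number of sorted cells had in this was not tested.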
